A study of Mus musculus with 14 samples.

Results

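Mouse B16F10 melanoma tumours injected with a polymer carrying paclitaxel and a small interfering RNA against PD-L1 were compared with untreated tumours taken at day 0. The comparison used 7 of the 14 RNA sequencing libraries of the study, 4 labelled siPD-L1 and 3 labelled untreated day 0, and covered every gene with enough counts to test. The libraries were grouped by their labels. A further 3 libraries from tumours injected with D5W, the dextrose vehicle without polymer, drug or siRNA, were set beside them throughout, so that a change also present in vehicle-injected tumours could be read next to one that was larger or smaller after treatment.

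The tumours grew from B16F10 cells placed under the skin of C57BL/6 mice and were injected at about 150 mm3. The day 0 group had no treatment. The D5W group received 5% dextrose in water and was labelled day 7, and the siPD-L1 group received the polymer formulation named 2E', loaded with paclitaxel (PTX) and siPD-L1, also labelled day 7. A group of 4 day 7 libraries received 2E'/PTX with siNeg, the control siRNA, and its values are given where a result turns on them. The labels give neither the age and sex of the mice nor how many mice stand behind each library, so p-values measure the spread between these libraries, which may be partly technical. Injection and 7 days of growth both separate the D5W libraries from day 0, and their parts cannot be told apart. The libraries were made from whole tumour RNA, so fewer cells of a type and less RNA per cell cannot be told apart in these data either.

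Paclitaxel binds tubulin and holds cells in mitosis. PD-L1, the product of Cd274, is a surface ligand that restrains T cells through PD-1, and it is raised in many cells by interferon gamma. An siRNA loaded onto the RNA-induced silencing complex directs cleavage of its matching messenger RNA. B16F10 is a pigmented melanoma line with low MHC class I, used as a poorly inflamed tumour model. Immediate early genes are transcription factors and feedback regulators that respond to growth factors, cyclic AMP or stress without new protein synthesis. The integrated stress response, run by Atf4, raises genes of amino acid supply when translation is restrained, while Xbp1 and Atf6 raise chaperones and secretory machinery of the endoplasmic reticulum.

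Total counts per library ran from 60166278 to 85941309, and 17141 of the 37409 deposited genes had enough counts to test. One label names CT26, a colon carcinoma line, while the treatment protocol names B16F10, and the markers were those of melanocytes: Dct stood at 6480 to 8400 counts-per-million units (CPM) over the day 0, D5W and siPD-L1 libraries and Tyrp1 at 3870 to 5790 CPM. Of 8 intestinal epithelial markers 4 could be tested, and these summed to at most 10.1 CPM in any library. The siPD-L1 replicate 1 library stood apart, with 13.9% of its counts in ribosomal RNA-like genes against 0.517% to 1.14% in the other 13. The D5W replicate 3 library lay farthest along the first principal component, which held 36.2% of the variance, and day 0 replicate 2 had 15.2% mitochondrial counts. Low immune gene levels marked siPD-L1 replicate 3, as given below.

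Cd274, the siRNA target, lies on the plus strand of chromosome 19 (GRCm38, chr19:29367455-29388095). It stood at 11.8, 12.5 and 11.8 CPM in the day 0 libraries, at 14.8, 13.8 and 18.5 CPM in D5W and at 15.8, 16.5, 17.0 and 20.8 CPM in siPD-L1. The siPD-L1 libraries were all above the day 0 libraries and overlapped those of D5W. Cd274 was higher than at day 0, with a log2 fold change of 0.55 ± 0.17 (SE) and an edgeR quasi-likelihood adjusted p of 0.0366, while D5W was 0.39 ± 0.18 above day 0 (adjusted p = 0.143) and siPD-L1 was 0.16 above D5W with a 95% interval from -0.20 to 0.53. Against the control siRNA, whose libraries held 17.6, 31.6, 28.8 and 21.6 CPM, siPD-L1 stood lower by a log2 difference of -0.50 with an interval from -0.84 to -0.17, which did not pass adjustment over all genes (adjusted p = 0.515). The rise over day 0 no longer passed without any one of the 3 day 0 libraries (adjusted p = 0.119, 0.0825 and 0.0998 without replicates 1, 2 and 3), nor without siPD-L1 replicate 3 (0.0563) or replicate 4 (0.0874), over a range of 0.0423 to 0.119 when each of the 7 libraries was left out in turn.

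Across all genes tested, 1968 were higher in siPD-L1 than at day 0 (11.5%) and 1788 were lower (10.4%) at an adjusted p under 0.05. Of these, 363 were higher (2.12%) and 151 lower (0.881%) by at least 2-fold. The D5W libraries gave numbers of the same order, 2030 genes higher (11.8%) and 1661 lower (9.69%), against the same 3 day 0 libraries. Every list count below stands beside these shares, and a count near them says nothing particular about its list. Between siPD-L1 and D5W themselves 5 genes passed (0.0292%), all of them lower in siPD-L1, and 1375 genes had an unadjusted p under 0.05. The count of 3756 genes in siPD-L1 against day 0 was 1653 without day 0 replicate 1, 2069 without day 0 replicate 2 and 2616 without day 0 replicate 3. Each omission also leaves a smaller day 0 group, and that loss cannot be told apart from the part of a given library. The same limit holds for calls below that fail without a library. Both day 7 comparisons share the day 0 libraries, and their values are therefore given side by side and not as independent evidence. Leaving out D5W replicate 3 changes many D5W counts, and those values are given where they bear on a list. Over all genes that setting gave 1281 higher and 755 lower in D5W. In siPD-L1 it gave 2483 higher and 2583 lower, and list counts in that setting stand beside these. Median log2 fold changes over all genes were 0.0144 for siPD-L1 and 0.0025 for D5W. The libraries did not overlap in 35% of all genes between siPD-L1 and day 0 and in 43.8% between D5W and day 0. Between siPD-L1 and D5W the share was 5.74%. Groups said below not to overlap are to be read beside these shares.

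**Figure D1:**
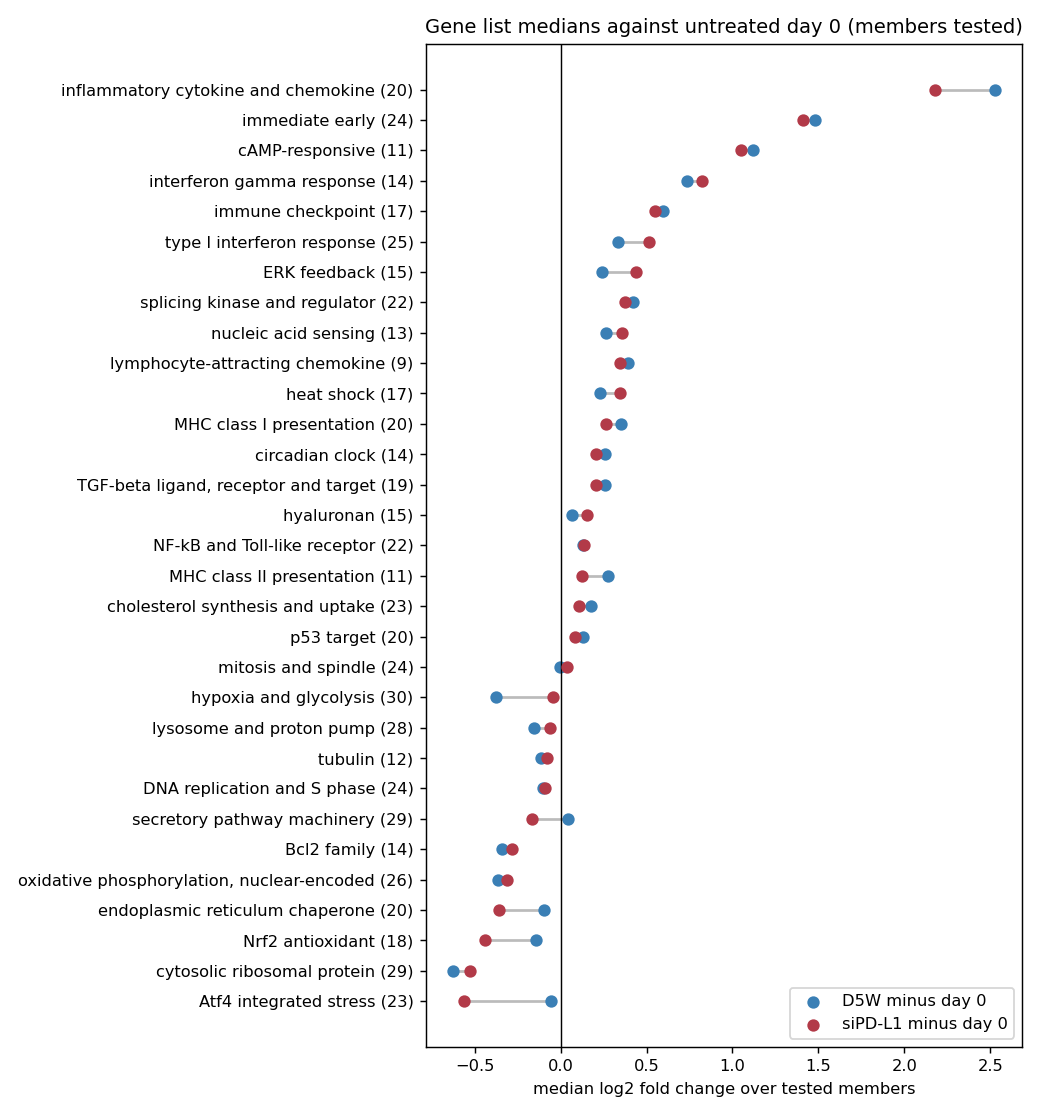
The horizontal axis gives the median log2 fold change against untreated day 0 over the tested members of each gene list (number of members in brackets), with red points for siPD-L1 and blue points for D5W. The points lie close together for most lists, from the immediate early genes at 1.41 and 1.48 to the ribosomal proteins at -0.529 and -0.625, and lie farther apart for Atf4 integrated stress genes, at -0.564 and -0.0559. Lists of cell type markers are not drawn.

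Immediate early genes rose in both day 7 groups. Of 24 such genes tested, 18 were higher in siPD-L1 than at day 0 and 1, Ier3, was lower, with a median log2 fold change of 1.41, and D5W gave the same counts with a median of 1.48. Nr4a2, an orphan nuclear receptor (chr2:57106830-57124003), stood at 5.31, 6.04 and 5.76 CPM at day 0, at 107, 135 and 215 CPM in D5W and at 139, 91.8, 51.2 and 85.5 CPM in siPD-L1. Every day 7 library was far above every day 0 library, and siPD-L1 replicate 3 was the lowest of its group. The log2 fold change was 4.01 ± 0.41 in siPD-L1 (adjusted p = 0.00011) and 4.74 ± 0.43 in D5W, and siPD-L1 was 0.73 lower than D5W on the log2 scale without passing adjustment (difference -0.73, adjusted p = 0.622). Klf4, a zinc finger factor of differentiation, went from 26.4, 28.2 and 29.0 CPM to 444, 283, 240 and 411 CPM, a log2 fold change of 3.63 ± 0.23 beside 4.16 ± 0.24 in D5W. Fosb, a subunit of AP-1, went from 70.4, 99.2 and 90.5 CPM to 941, 514, 574 and 931 CPM, a log2 fold change of 3.09 ± 0.21 beside 3.35 ± 0.22. The ranges of D5W and siPD-L1 overlapped for both genes. Jun, another AP-1 subunit, rose by 1.80 ± 0.15 beside 1.47 ± 0.16 in D5W. Btg2, an antiproliferative gene also induced by p53, held 3.57, 3.38 and 3.54 CPM at day 0 and 25.3, 20.7, 15 and 31.3 CPM in siPD-L1, a log2 fold change of 2.72 ± 0.21 beside 2.76 ± 0.21. Leaving out any one of the 7 libraries gave 16 to 18 higher genes.

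Genes that respond to cyclic AMP through CREB were also higher. Of 11 tested, 9 were higher in siPD-L1 and 9 in D5W, with medians of 1.05 and 1.12 beside the all-gene medians near 0. The siPD-L1 count ranged from 6 to 9 when each of the 7 libraries was left out in turn. Without D5W replicate 3 the counts were 8 in siPD-L1 and 6 in D5W. After removal of a GC and length trend siPD-L1 had 6 higher and 1 lower, and D5W 7 and 1, with medians of 0.814 and 1.01. Sik1, a kinase that restrains CREB coactivators, held 27.5, 26.8 and 31.9 CPM at day 0, 470, 500 and 496 CPM in D5W and 597, 479, 210 and 443 CPM in siPD-L1. Its log2 fold change was 3.91 ± 0.28 in siPD-L1 and 4.09 ± 0.29 in D5W, and again siPD-L1 replicate 3 was lowest. Crem, which encodes CREB-related activators and the repressor ICER, rose by 1.40 ± 0.14 (1.71 ± 0.15 in D5W). Rgs2, which quenches G protein signalling, rose by 2.65 ± 0.22 (2.77 ± 0.23). Per1, a clock repressor with CREB-responsive transcription, rose by 1.43 ± 0.18 (1.44 ± 0.19).

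The promoter windows of RefSeq (GRCm38.p6, 250 bases before to 50 after a start) were searched on both strands for the letters of known elements, as a description without a test. A window was at hand for 11854 of the tested genes. The cAMP response element TGACGTCA was present in 3.27% of all tested genes with a window, in 5.34% of the 1460 such genes higher in siPD-L1 and in 2.71% of the 1367 lower. The AP-1 letters TGACTCA were in 4.78%, 3.90% and 5.05% of the same sets, and the NF-kB-like letters GGANNTTCC in 5.57%, 5.21% and 5.78%. Among the genes higher by at least 2-fold, of which 213 had a window, the shares were 6.10% for the cAMP element, 8.92% for AP-1 and 11.3% for the NF-kB-like letters. Among the genes lower by at least 2-fold, 86 with a window, they were 1.16%, 5.81% and 8.14%. None of the 8 cAMP-responsive genes with a window held TGACGTCA. It lies in windows of 3 of the 12 genes with the smallest p-values (Btg2, Ccnl1 and Plk2), whose windows are printed with that of a start of Mitf to show where it sits, with the match in capitals.
Btg2, chr1:134079106-134079405, minus strand: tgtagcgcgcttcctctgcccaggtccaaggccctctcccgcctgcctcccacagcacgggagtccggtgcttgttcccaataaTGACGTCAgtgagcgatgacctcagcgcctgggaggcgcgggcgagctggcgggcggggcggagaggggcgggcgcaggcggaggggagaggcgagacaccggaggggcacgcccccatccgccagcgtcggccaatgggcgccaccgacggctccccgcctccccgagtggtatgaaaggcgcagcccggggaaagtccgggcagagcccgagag
Ccnl1, chr3:65958200-65958499, minus strand: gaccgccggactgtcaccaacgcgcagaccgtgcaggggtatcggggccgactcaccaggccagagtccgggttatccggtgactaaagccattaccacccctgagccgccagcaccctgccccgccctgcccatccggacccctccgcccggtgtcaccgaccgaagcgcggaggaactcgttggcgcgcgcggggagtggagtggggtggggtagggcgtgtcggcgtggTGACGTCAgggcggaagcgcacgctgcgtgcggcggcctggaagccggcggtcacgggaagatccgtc
Plk2, chr13:110394794-110395093, plus strand: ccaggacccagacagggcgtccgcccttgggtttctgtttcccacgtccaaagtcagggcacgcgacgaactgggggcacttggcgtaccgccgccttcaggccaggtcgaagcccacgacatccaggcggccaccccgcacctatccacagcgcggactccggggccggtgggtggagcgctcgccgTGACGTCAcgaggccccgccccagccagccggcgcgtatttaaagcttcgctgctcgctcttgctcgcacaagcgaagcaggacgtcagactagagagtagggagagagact
Mitf, chr6:97991533-97991832, plus strand: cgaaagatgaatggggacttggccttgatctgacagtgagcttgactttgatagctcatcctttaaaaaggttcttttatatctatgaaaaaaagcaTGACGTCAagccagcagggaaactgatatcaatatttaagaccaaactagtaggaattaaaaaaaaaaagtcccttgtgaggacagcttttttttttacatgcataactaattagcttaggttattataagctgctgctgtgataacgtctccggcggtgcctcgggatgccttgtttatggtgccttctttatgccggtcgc

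The genes with the smallest p-values in siPD-L1 against day 0 included regulators outside those lists. Arrdc3, an arrestin-domain protein that directs receptors to degradation, held 72.5, 53.7 and 61.4 CPM at day 0 and 255, 227, 272 and 249 CPM in siPD-L1, a log2 fold change of 2.00 ± 0.12 (adjusted p = 3.17e-07) beside 1.77 ± 0.12 in D5W. Coq10b, a coenzyme Q binding protein, rose by 2.33 ± 0.14 beside 2.31 ± 0.14, with siPD-L1 replicate 3 lowest at 36.5 CPM and the other 3 at 51.1 to 54.5 CPM. Plk2, a polo-like kinase induced by p53 and by signalling, rose by 2.73 ± 0.20 beside 2.42 ± 0.20. Tiparp, a mono-ADP-ribosyltransferase of the aryl hydrocarbon receptor pathway, rose by 1.34 ± 0.08 beside 1.35 ± 0.09. Btg1, a relative of Btg2, rose by 1.32 ± 0.09 beside 1.44 ± 0.10. In each of these genes the D5W and siPD-L1 libraries overlapped. Osr2, an odd-skipped transcription factor at 1.5, 1.05 and 1.54 CPM at day 0, reached 16.1, 9.74, 9.04 and 13 CPM, a log2 fold change of 3.12 ± 0.23 beside 3.49 ± 0.24.

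**Figure D2:**
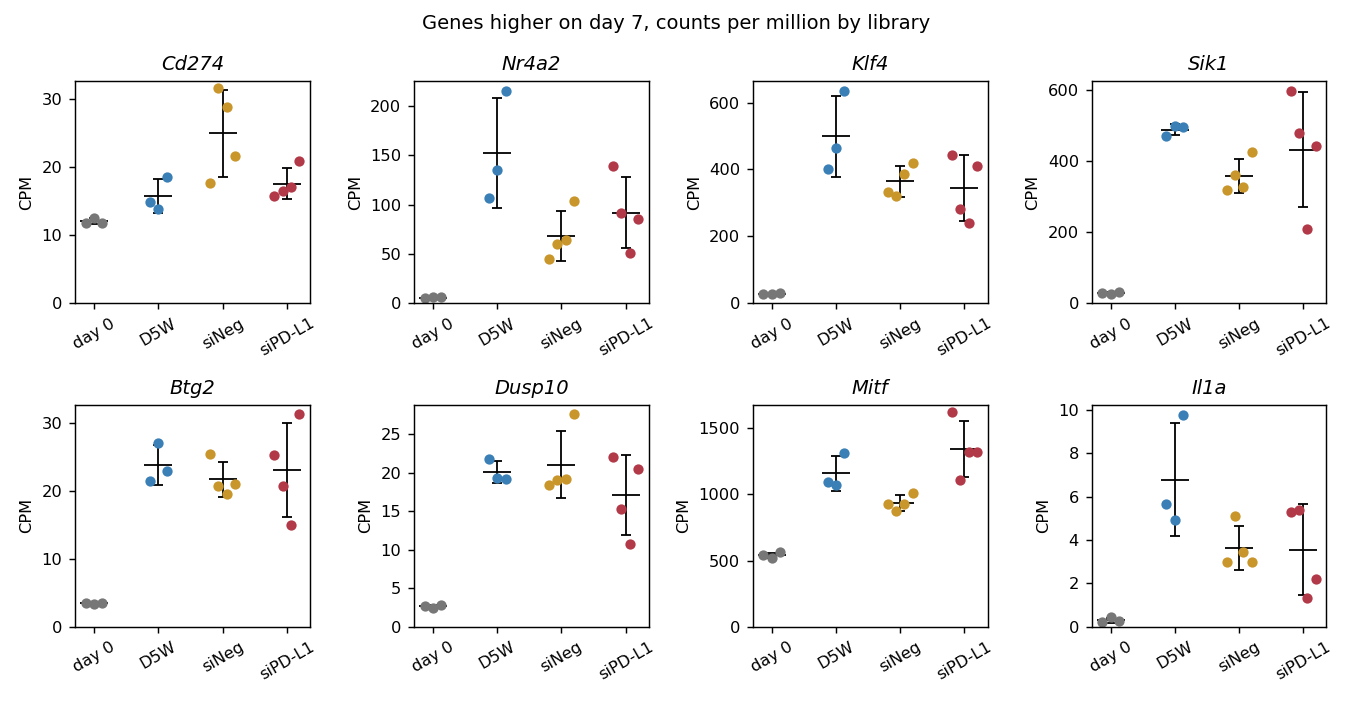
The vertical axes give CPM for 8 genes, with 1 point per library, a bar at the group mean and error bars of 1 SD for day 0 (n = 3), D5W (n = 3), siNeg (n = 4) and siPD-L1 (n = 4). The day 0 points lie below all siPD-L1 points in each panel, and the siPD-L1 and D5W points overlap in all panels.

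Feedback genes of the ERK pathway moved in both directions. Of 15 tested, 8 were higher in siPD-L1 and 3 lower, against 6 and 1 in D5W. Dusp10, a phosphatase of p38 and JNK, held 2.65, 2.5 and 2.80 CPM at day 0 and 22.1, 15.3, 10.7 and 20.5 CPM in siPD-L1, a log2 fold change of 2.69 ± 0.23 beside 2.92 ± 0.24 in D5W. Dusp1 and Dusp5, phosphatases of MAP kinases, rose by 1.30 ± 0.14 and 1.33 ± 0.15. Spry4, an inhibitor of receptor tyrosine kinase signalling, fell from 23.1, 26.0 and 22.5 CPM to 10.3, 11.5, 11.7 and 13.9 CPM, a log2 fold change of -1.01 ± 0.14 beside -0.89 ± 0.15. The other lower members were the transcription factors Etv5 and Etv4. The 8 higher members became 5 without siPD-L1 replicate 1, and also 5 without any one of the 3 day 0 libraries. Splicing kinases and regulators were higher in 11 of 22 (14 in D5W), with none lower and medians of 0.375 and 0.422, and without D5W replicate 3 the D5W count was 8 and the siPD-L1 count 13. Ccnl1, cyclin L1, a partner of splicing-related kinases, went from 57.0, 63.0 and 60.5 CPM to 130, 140, 145 and 137 CPM, a log2 fold change of 1.20 ± 0.07. Clk1, which phosphorylates SR splicing factors, rose by 1.21 ± 0.13.

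Inflammatory cytokines and chemokines rose from low levels. Of 20 tested, 11 were higher in siPD-L1 and 14 in D5W, none was lower, and the medians were 2.18 and 2.53. Without D5W replicate 3 the counts were 11 in siPD-L1 and 10 in D5W, with a D5W median of 2.37. The siPD-L1 count ranged from 8 to 13 when each of the 7 libraries was left out in turn. Il1a, an alarmin cytokine, stood at 0.219, 0.434 and 0.279 CPM at day 0, at 5.64, 4.94 and 9.75 CPM in D5W and at 5.28, 5.39, 1.33 and 2.20 CPM in siPD-L1. Its log2 fold change was 3.53 ± 0.52 (adjusted p = 0.000641) beside 4.46 ± 0.54 in D5W. Tnf held 0.379, 0.380 and 0.495 CPM at day 0 and 4.69, 5.35, 0.949 and 2.20 CPM in siPD-L1, a log2 fold change of 2.96 ± 0.52 beside 3.99 ± 0.55. Cxcl1, a neutrophil attractant, rose by 3.83 ± 0.73 beside 5.42 ± 0.77, and Il10, an anti-inflammatory cytokine, by 3.63 ± 0.71 beside 4.69 ± 0.72. Ptgs2, the inducible prostaglandin synthase, rose by 2.77 ± 0.49 beside 3.27 ± 0.51, with 6.79 CPM in siPD-L1 replicate 3 and 10.7 to 23.1 CPM in the other 3. For each of these genes siPD-L1 replicate 3 was the lowest of its group and no difference from D5W passed adjustment. The NF-kB and Toll-like receptor list had 5 of 22 higher (8 in D5W, which became 3 without D5W replicate 3): Nfkbiz, an atypical IkB protein that activates secondary response genes, rose by 2.13 ± 0.21, Rel by 1.07 ± 0.14, Bcl3 by 1.22 ± 0.21, Tnfaip3 by 1.19 ± 0.30 and Cd14 by 1.92 ± 0.51. Without day 0 replicate 1 the 5 became 3, since Tnfaip3 and Cd14 no longer passed, and Cd14 also failed without day 0 replicate 2 or 3.

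Of 13 inflammatory genes with a promoter window, 6 held the NF-kB-like letters GGANNTTCC (46.2%) and 3 the AP-1 letters (23.1%), beside 5.57% and 4.78% of all tested genes. The Cxcl1 window is shown for the first and the Il1a window for the second, with the match in capitals.
Cxcl1, chr5:90890995-90891294, plus strand: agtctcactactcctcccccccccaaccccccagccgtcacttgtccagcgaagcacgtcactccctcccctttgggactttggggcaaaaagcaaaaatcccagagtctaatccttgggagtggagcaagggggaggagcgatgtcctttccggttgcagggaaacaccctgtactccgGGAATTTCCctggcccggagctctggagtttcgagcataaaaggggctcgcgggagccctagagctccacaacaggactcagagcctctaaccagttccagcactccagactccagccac
Il1a, chr2:129309923-129310222, minus strand: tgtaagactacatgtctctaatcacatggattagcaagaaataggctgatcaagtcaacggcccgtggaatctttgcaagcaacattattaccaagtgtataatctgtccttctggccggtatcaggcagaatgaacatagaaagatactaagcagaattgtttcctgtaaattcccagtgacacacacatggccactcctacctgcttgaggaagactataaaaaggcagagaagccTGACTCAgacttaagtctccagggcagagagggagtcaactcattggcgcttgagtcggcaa

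Genes of cytosolic ribosomal proteins were lower in siPD-L1 in 27 of 29 and in D5W in 27 of 29, with medians of -0.529 and -0.625. The D5W count was 16 without D5W replicate 3. Rps3, of the small subunit, held 1050, 1170 and 878 CPM at day 0 and 539, 734, 648 and 669 CPM in siPD-L1, a log2 fold change of -0.68 ± 0.13 beside -0.68 ± 0.14. Short and GC-rich transcripts were lower as a class in both comparisons: in siPD-L1 the median log2 fold change was -0.163 in the class of shortest genes and 0.158 in that of the longest, and 0.136 in the class of lowest GC content and -0.133 in that of the highest, with 5710 to 5712 genes in each class. With that trend removed the 27 became 14, and Rpl19, at -0.40 ± 0.08 in the main fit, stood at 0.01 on the log2 scale. The 27 became 13 without day 0 replicate 1 and 13 without day 0 replicate 2. Ribosomal protein genes have many near-identical pseudogenes, so their counts depend on how the authors' counting divided shared reads. Nuclear genes of oxidative phosphorylation were lower in 12 of 26 (13 in D5W), with medians of -0.314 and -0.362. Ndufa1, of complex I, fell by 0.69 ± 0.11 on the log2 scale (-0.69 beside -0.52 ± 0.12 in D5W). The 12 became 6 with the trend removed, 5 without day 0 replicate 1, 7 without day 0 replicate 2 and 7 without siPD-L1 replicate 1.

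The 5 genes that differed between siPD-L1 and D5W were all lower in siPD-L1, and 2 of them belong to the early secretory pathway. Kdelr3, a receptor that returns chaperones from the Golgi to the endoplasmic reticulum (chr15:79516411-79527739), held 17.6, 19.4 and 15.8 CPM at day 0, 13.2, 12.4 and 12.8 CPM in D5W and 5.67, 6.92, 5.92 and 6.62 CPM in siPD-L1. The 3 groups did not overlap. The log2 fold change from day 0 was -1.48 ± 0.14 in siPD-L1 and -0.46 ± 0.15 in D5W, and the difference of -1.02 ± 0.14 passed (edgeR adjusted p = 0.0205). Sec24d, a cargo adaptor of COPII vesicles (chr3:123267455-123365641), held 83.5, 91.6 and 85.6 CPM at day 0 and 83.7, 82.2 and 92.9 CPM in D5W, which overlapped, and 62.8, 56.4, 59.0 and 63.1 CPM in siPD-L1. It differed from D5W by -0.52 ± 0.08 (adjusted p = 0.0416). Prrc1, a Golgi-associated coiled-coil protein, stood at 51.0 to 55.3 CPM in siPD-L1 and 68.4 to 70.0 CPM in D5W, a difference of -0.38 ± 0.06 (adjusted p = 0.034).

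The other two genes encode metabolic enzymes. Nnmt, which methylates nicotinamide (chr9:48591877-48605153), held 10.4, 12.5 and 9.19 CPM at day 0, 6.74, 7.25 and 6.48 CPM in D5W and 2.91, 2.43, 3.46 and 4.11 CPM in siPD-L1, 3 groups without overlap. Its difference from D5W was -1.08 ± 0.16 (adjusted p = 0.034). Bcat1, the cytosolic branched-chain aminotransferase (chr6:144993835-145076184), held 110 CPM in each day 0 library, 100, 110 and 114 CPM in D5W and 71.4, 66.3, 71.1 and 80.9 CPM in siPD-L1, a difference of -0.58 ± 0.07 (adjusted p = 0.0205). The siNeg libraries were also low in all 5 genes: Kdelr3 stood there at 4.40 to 7.26 CPM and Sec24d at 54.8 to 70.3 CPM, and siPD-L1 differed from siNeg by 0.05 with an interval from -0.23 to 0.33 for Kdelr3 and by -0.04 with an interval from -0.20 to 0.12 for Sec24d. For Nnmt and Bcat1 the siPD-L1 libraries were lower than siNeg by -0.44 ± 0.15 and -0.19 ± 0.07 without passing adjustment (adjusted p = 0.523 and 0.527), and for Prrc1 by -0.09 ± 0.05. Kdelr3 overlaps Ddx17 on the opposite strand, and Prrc1 and Bcat1 overlap noncoding genes there, so reads of the partners may be mixed in the counts, as the strand setting of the counting is not given in the sources used here. No gene passed between siPD-L1 and siNeg in edgeR, while 1471 had an unadjusted p under 0.05. The count of 5 against D5W was 0 without siPD-L1 replicate 1 or replicate 2, 1 without siPD-L1 replicate 3, 2 without D5W replicate 1, 8 without D5W replicate 2 and 10 without D5W replicate 3, and DESeq2 called 183.

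**Figure D3:**
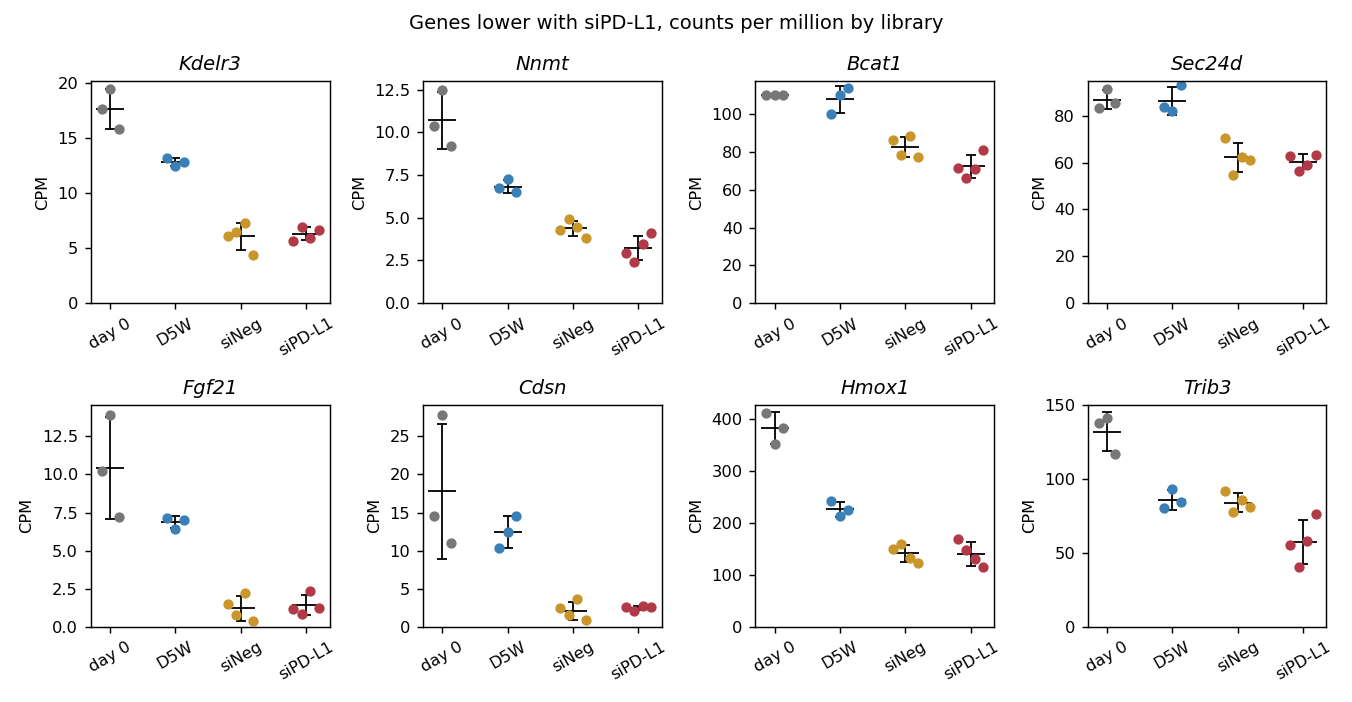
The vertical axes give CPM for 8 genes that were lower in siPD-L1 than at day 0, with 1 point per library, a bar at the group mean and error bars of 1 SD (day 0 and D5W n = 3, siNeg and siPD-L1 n = 4). The siPD-L1 points lie below all D5W points in each panel, and the siNeg points lie near the siPD-L1 points for Kdelr3, Fgf21, Cdsn and Hmox1 and nearer to D5W for Trib3.

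Genes of the integrated stress response were lower in 14 of 23 tested and higher in 1, Ppp1r15a, in siPD-L1, against 5 lower and 2 higher in D5W, with medians of -0.564 and -0.0559. Without D5W replicate 3, D5W had 4 lower and none higher, with a median of -0.135, and the siPD-L1 values stayed the same. Fgf21, a stress hormone induced by Atf4 (chr7:45613886-45615490), held 10.2, 13.9 and 7.23 CPM at day 0, 7.17, 6.43 and 7.02 CPM in D5W and 1.19, 0.876, 2.38 and 1.23 CPM in siPD-L1. The siPD-L1 libraries lay below all D5W and day 0 libraries. The log2 fold change was -2.87 ± 0.45 (adjusted p = 0.000968) beside -0.60 ± 0.46 in D5W, and siPD-L1 differed from D5W by -2.27 with an interval from -3.22 to -1.32 that did not pass adjustment over all genes (adjusted p = 0.0736). Trib3, a pseudokinase induced by Atf4, held 138, 141 and 117 CPM at day 0, 80.2, 93.6 and 84.2 CPM in D5W and 55.1, 40.5, 58.3 and 76.4 CPM in siPD-L1, log2 fold changes of -1.20 ± 0.15 and -0.62 ± 0.16. Phgdh and Psat1, the first enzymes of serine synthesis, fell by 0.70 and 0.52 on the log2 scale in siPD-L1, beside -0.37 ± 0.09 and -0.23 ± 0.08 in D5W. Ddit4, an inhibitor of mTORC1 that hypoxia also induces, differed from this order: it stood at 191, 175 and 167 CPM at day 0, 72.1, 67.1 and 41.2 CPM in D5W and 50.4, 70.3, 63.7 and 73.5 CPM in siPD-L1, with log2 fold changes of -1.46 ± 0.16 and -1.56 ± 0.18. Leaving out any one of the 7 libraries gave 14 to 16 lower members. The mean log2 CPM of the list was 5.37 to 5.84 in siPD-L1, 5.84 to 6.01 in siNeg and 6.08 to 6.26 in D5W, so siNeg also lay below D5W.

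Chaperones of the endoplasmic reticulum were lower in 11 of 20 in siPD-L1 and in 2 of 20 in D5W, with 1, Dnajb9, higher in D5W, and medians of -0.361 and -0.0982. Without D5W replicate 3 the D5W counts were 0 lower and 0 higher. Sdf2l1, part of a chaperone complex with BiP, held 74.6, 88.8 and 70.9 CPM at day 0, 58.9, 63.9 and 48.5 CPM in D5W and 43.8, 49.1, 38.6 and 46.2 CPM in siPD-L1. The day 0 libraries were apart from both and the D5W and siPD-L1 libraries overlapped at their edges, with log2 fold changes of -0.82 ± 0.12 and -0.45 ± 0.13. Manf, a secreted factor induced by endoplasmic reticulum stress, fell by 0.62 in siPD-L1 (-0.31 ± 0.13 in D5W), Pdia4, a disulfide isomerase, by 0.51 (-0.20 ± 0.11), and P4hb, the main disulfide isomerase, by 0.44 (-0.29 ± 0.09). All 20 members stood lower in siPD-L1 than in D5W in the fit, with a median difference of -0.238 beside 0.00661 over all genes, and none of these differences passed adjustment. The 11 became 6 without day 0 replicate 2, the library with the highest mean level of the list. The mean log2 CPM was 7.89 to 8.05 in siPD-L1, 7.80 to 8.06 in siNeg and 8.14 to 8.23 in D5W, so siNeg was also below D5W.

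Secretory machinery was lower as well. Of 29 genes of the translocon, COPII, COPI and cargo receptors, 13 were lower in siPD-L1 and none higher, against 6 lower and 2 higher in D5W, with medians of -0.167 and 0.0397. Without D5W replicate 3, D5W had 4 lower and 2 higher, with a median of -0.0659, and siPD-L1 had 15 lower. Sec61a1, the channel of the translocon, held 744, 774 and 744 CPM at day 0, 705, 707 and 677 CPM in D5W and 538, 574, 524 and 543 CPM in siPD-L1. The siPD-L1 libraries lay below the others, with log2 fold changes of -0.47 ± 0.07 and -0.11 ± 0.07 and a difference from D5W of -0.35 with an interval from -0.50 to -0.21 (adjusted p = 0.0714). Sec61b, another translocon subunit, fell in both, by 0.87 in siPD-L1 and 0.69 in D5W. Mcfd2, a cargo receptor subunit for clotting factors, fell by 0.57 beside -0.41 ± 0.08. Sec16b, which organises exit sites, stood at 1.88 to 2.44 CPM at day 0, 1.70 to 4.03 CPM in D5W and 0.630 to 0.983 CPM in siPD-L1, a log2 fold change of -1.41 ± 0.33 beside 0.31 ± 0.34. The mean log2 CPM of the list was 6.53 to 6.61 in siPD-L1, 6.82 to 6.84 in D5W and 6.86 to 6.97 at day 0, 3 ranges without overlap, and 6.47 to 6.61 in siNeg.

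Antioxidant and iron genes that Nrf2 regulates were lower in 11 of 18 in siPD-L1 and higher in none, against 5 lower and 2 higher in D5W, with medians of -0.442 and -0.146. Without D5W replicate 3, D5W had 3 lower and 1 higher. Hmox1, haem oxygenase (chr8:75093621-75100589), held 413, 352 and 384 CPM at day 0, 242, 213 and 226 CPM in D5W and 169, 148, 131 and 115 CPM in siPD-L1. The 3 groups did not overlap. The log2 fold changes were -1.44 ± 0.12 and -0.75 ± 0.13, and the difference from D5W was -0.69 with an interval from -0.94 to -0.44 (adjusted p = 0.0507). Fth1, the ferritin heavy chain, fell by 1.02 in siPD-L1 and by 0.67 in D5W, and its counts may include reads from processed pseudogenes. Osgin1, an oxidative stress growth inhibitor, fell by 0.88 beside -0.49 ± 0.17, and Gstm1, a glutathione transferase, by 0.64 beside -0.44 ± 0.13. The count of 11 became 7 after the GC and length trend was removed, and also 7 without day 0 replicate 1. The mean log2 CPM of the list was 6.40 to 6.49 in siPD-L1, 6.44 to 6.57 in siNeg and 6.75 to 6.80 in D5W.

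The lowest fold changes were sought among called genes with a mean of at least 1 CPM and no overlap of siPD-L1 with day 0. They were of genes with varied known roles. Cdsn, corneodesmosin of the skin barrier, held 14.5, 27.8 and 11 CPM at day 0, 10.4, 12.4 and 14.5 CPM in D5W and 2.57, 2.06, 2.71 and 2.61 CPM in siPD-L1, with log2 fold changes of -2.83 ± 0.38 and -0.51 ± 0.39. Akr1b7, an aldo-keto reductase, stood at 3.83 to 7.53, 3.29 to 4.58 and 0.445 to 1.47 CPM in the same groups, with log2 fold changes of -2.56 ± 0.35 and -0.52 ± 0.36. Acox2, a peroxisomal oxidase of bile acid intermediates, was at -2.5 ± 0.37 beside -0.46 ± 0.38. In these genes day 0 and D5W overlapped and siPD-L1 lay below both. Separation from day 0 was a condition of naming them, and separation from D5W was one for some named genes. It is therefore not separate support. Avil, an actin-binding protein of the villin family, was at -2.42 ± 0.40 beside -0.12 ± 0.41, Otog, otogelin of the inner ear matrix, at -2.47 ± 0.51 beside -0.43 ± 0.53, and Sspo, a spondin-type matrix protein, at -2.13 ± 0.33 beside -0.59 ± 0.34. Tmem179, a membrane protein, was measured at higher counts, with 68.2, 61.7 and 59.2 CPM at day 0, 28.7, 28.8 and 37.9 CPM in D5W and 18.6, 18.8, 20.2 and 13.8 CPM in siPD-L1. It fell in both, by 1.82 and 0.99. The adjusted p for siPD-L1 against D5W was 0.0507 for Cdsn and Akr1b7, 0.067 for Acox2 and Tmem179, 0.0597 for Avil, 0.184 for Otog and 0.126 for Sspo, and the siNeg libraries of Cdsn held 0.893 to 3.62 CPM.

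In the fit, 29 of 30 hypoxia and glycolysis genes stood higher in siPD-L1 than in D5W, and none of these differences passed adjustment. Against day 0, D5W had 12 lower and none higher, while siPD-L1 had 4 lower and 2 higher, with medians of -0.376 and -0.0473. D5W replicate 3 had the lowest mean level of the list in that group (7.45 log2 CPM beside 7.90 and 7.82). Without it D5W had 5 lower and siPD-L1 6 lower and 3 higher, with medians of -0.186 and -0.0471. Over all genes the D5W lower count also fell without it, from 1661 to 755. The level of this library and the smaller group cannot be told apart as sources of the change in counts. With library totals as the only scaling both groups had 4 lower. The mean log2 CPM of the list was 7.95 to 8.10 in siPD-L1 and 8.03 to 8.11 in siNeg, both above the 7.45 to 7.90 of D5W. Adm, adrenomedullin, a vasodilator peptide induced by HIF that overlaps Gm28863 on the opposite strand, held 58.7, 50.1 and 53.1 CPM at day 0, 25.9, 24.4 and 17.4 CPM in D5W and 37.8, 35.8, 35.7 and 30.2 CPM in siPD-L1. The groups did not overlap and siPD-L1 lay between. Libraries of siPD-L1 and D5W did not overlap in 5.74% of all genes. The log2 fold changes of Adm were -0.63 ± 0.12 and -1.26 ± 0.13, with a difference of 0.63 from D5W that did not pass (interval 0.37 to 0.89, adjusted p = 0.0714). Ankrd37, another HIF target, was at -0.82 ± 0.18 beside -1.59 ± 0.20, and Pfkfb3, which makes an activator of glycolysis, at -0.64 ± 0.10 beside -0.55 ± 0.10. Vegfa, named after its values were seen, fell in D5W (-0.38, adjusted p = 0.0136) and was at 0.07 in siPD-L1 (adjusted p = 0.592). The 2 higher members, Hk2 (0.22 ± 0.07), the hexokinase, and Mxi1 (0.24 ± 0.08), a Myc antagonist, no longer both passed without any one of the day 0 libraries or siPD-L1 replicates 1, 3 or 4, leaving 0 or 1. The letters ACGTG of the hypoxia response core were in 72.4% of 29 hypoxia genes with a window and in 28.0% of all tested genes.

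Heat shock genes were higher in 9 of 17 in siPD-L1 and lower in 1, Hspe1, against 3 higher in D5W, with medians of 0.346 and 0.230. Hsph1, an Hsp110 chaperone, held 85.7, 92.0 and 95 CPM at day 0, 116, 115 and 104 CPM in D5W and 167, 162, 169 and 136 CPM in siPD-L1. The groups did not overlap, and the log2 fold changes were 0.80 ± 0.12 (adjusted p = 0.000641) and 0.30 ± 0.13 (adjusted p = 0.101), with a difference of 0.50 from D5W that did not pass (adjusted p = 0.172). Dnaja1, an Hsp40 co-chaperone, rose by 0.47 ± 0.09 beside 0.25 ± 0.10. Hspa1b, an inducible Hsp70, held 25.4, 33.8 and 19.5 CPM at day 0 and 139, 85.7, 67.0 and 89.3 CPM in siPD-L1, a log2 fold change of 1.86 ± 0.32 beside 1.11 ± 0.33, but it has a near-identical copy, Hspa1a, and the split of reads between them is uncertain. Hsf2, a heat shock transcription factor, rose by 0.35 ± 0.07 beside 0.24 ± 0.07. Leaving out any one of the 7 libraries gave 6 to 9 higher members. The mean log2 CPM of the list was 6.76 to 7.08 in siPD-L1, 6.68 to 7.09 in siNeg and 6.64 to 6.85 in D5W. Log2 differences of siPD-L1 from siNeg were 0.19 for Hsph1, 0.16 for Dnaja1, 0.05 for Hspa1b and 0.04 for Hsf2, none passing adjustment.

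**Figure D4:**
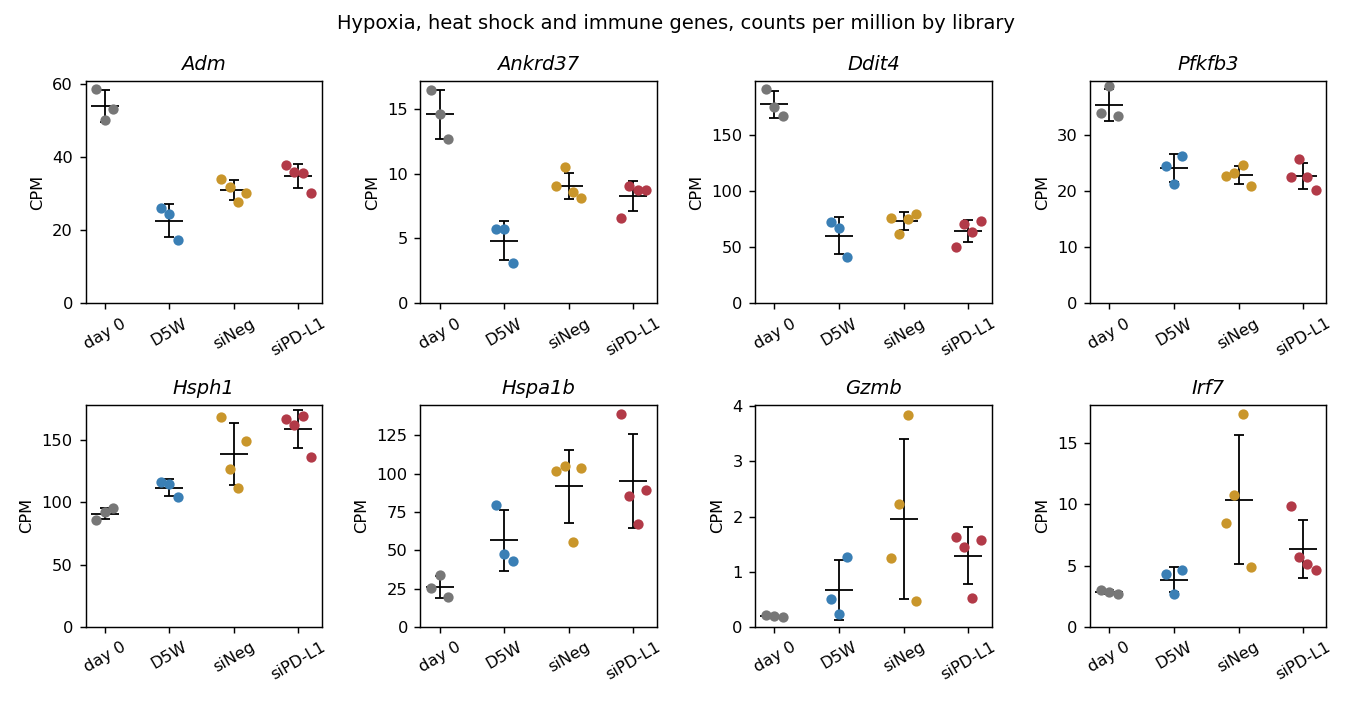
The vertical axes give CPM for 8 genes of the hypoxia, heat shock, cytotoxic and interferon lists, with 1 point per library, a bar at the group mean and error bars of 1 SD (day 0 and D5W n = 3, siNeg and siPD-L1 n = 4). The siPD-L1 points lie between day 0 and D5W for Adm and Ankrd37, above both for Hsph1, and are spread widely for Gzmb and Irf7.

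Interferon genes were higher in small numbers, at low levels. Of 25 type I interferon response genes 6 were higher in siPD-L1 and 1, Isg20, lower, against none higher and 1 lower in D5W, with medians of 0.512 and 0.331. Irf7, the transcription factor that amplifies type I interferon and overlaps Phrf1 on the opposite strand, held 3.02, 2.84 and 2.68 CPM at day 0, 4.32, 2.66 and 4.61 CPM in D5W and 9.87, 5.70, 5.13 and 4.67 CPM in siPD-L1. It was 1.16 ± 0.37 above day 0 (adjusted p = 0.0376) beside 0.44 ± 0.39, and its siNeg libraries held 4.88 to 17.4 CPM. Oas1a, a sensor synthase for double-stranded RNA, was at 0.44 ± 0.13 beside 0.11 ± 0.14, and Xaf1, a pro-apoptotic interferon-induced gene, at 0.73 ± 0.23 beside 0.22 ± 0.24. The 6 became 0 without siPD-L1 replicate 1, 0 without any one of the day 0 libraries and 1 without siPD-L1 replicate 3, while DESeq2 gave 12 and library totals without further scaling gave 1. Interferon gamma response genes were higher in 6 of 14 (3 in D5W), led by Socs3, a feedback inhibitor of STAT3, at 1.97 ± 0.33 beside 1.70 ± 0.34, and Irgm2, an immunity-related GTPase, at 0.87 ± 0.22 beside 0.58 ± 0.23. Without D5W replicate 3 the counts were 8 in siPD-L1 and 1 in D5W. The 6 became 3 without siPD-L1 replicate 1 or 4, 2 without day 0 replicate 1 or 3 and 1 without day 0 replicate 2. Slfn4, a myeloid Schlafen gene of a multigene family, held 0.685, 1.14 and 0.419 CPM at day 0, 1.36, 0.734 and 1.90 CPM in D5W and 11.6, 5.38, 4.32 and 2.58 CPM in siPD-L1, a log2 fold change of 3.02 ± 0.73 (adjusted p = 0.0126) beside 0.85 ± 0.75. It no longer passed without day 0 replicate 1 or 3. Against siNeg, the siPD-L1 log2 differences were -0.63 for Slfn4, -0.71 for Irf7, -0.42 for Oas1a, -0.60 for Xaf1 and 0.08 for Isg20. They were -0.27 for Socs3 and -0.47 for Irgm2, and none of these passed adjustment. Mean log2 CPM of the type I list was 2.58 to 2.95 in siPD-L1, 2.74 to 3.77 in siNeg and 2.19 to 2.76 in D5W.

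Cytotoxic markers were measured at low levels. Of 10 NK and cytotoxic markers 4 were higher in siPD-L1 (Gzmb, Gzma, Fasl and Eomes) and 1 in D5W (Fasl), which became 0 without D5W replicate 3. Gzmb, granzyme B, held 0.219, 0.199 and 0.178 CPM at day 0, 0.497, 0.237 and 1.27 CPM in D5W and 1.63, 1.45, 0.519 and 1.57 CPM in siPD-L1, a log2 fold change of 2.69 ± 0.73 beside 1.74 ± 0.77. The siPD-L1 and D5W libraries overlapped, and siPD-L1 replicate 3 was lowest. The 4 became 0 without any one of the day 0 libraries, 1 without siPD-L1 replicate 1 or 4 and 2 without siPD-L1 replicate 2. Summed over the list, the cytotoxic markers gave 1.13 to 1.48 CPM at day 0, 1.04 to 4.50 CPM in D5W and 2.00 to 4.80 CPM in siPD-L1. In siNeg, the control siRNA group, the sum was 2.25 to 9.85 CPM. The log2 differences of siPD-L1 from siNeg were -0.60 for Gzmb, -0.82 for Gzma, -0.44 for Fasl and 0.05 for Eomes, none passing adjustment. Among 17 checkpoint genes, 4 were higher in siPD-L1 (Ctla4, Icos, Cd274 and Tigit) and 1 lower (Cd276), against 2 higher in D5W. Ctla4, an inhibitory receptor of T cells, held 0.175, 0.235 and 0.165 CPM at day 0 and 1.14, 1.71, 0.709 and 1.46 CPM in siPD-L1, a log2 fold change of 2.71 ± 0.53 beside 2.11 ± 0.55. The 4 became 1 or 2 without any one of the 7 libraries other than siPD-L1 replicate 3, and the 2 of D5W became 0 without D5W replicate 3. Against siNeg, the siPD-L1 log2 differences were -0.34 for Ctla4, -0.34 for Icos and -0.50 for Cd274, none passing adjustment.

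Of 14 T cell markers none was higher in siPD-L1 and 1, Lck, was lower (-0.52 ± 0.14, not passing without day 0 replicate 1 or 2), with a median of 0.673 beside 0.641 in D5W, the latter 0.148 without D5W replicate 3. Cd8a stood at 0.165 to 0.233 CPM at day 0, 0.237 to 1.01 CPM in D5W and 0.342 to 0.604 CPM in siPD-L1 (1.34 ± 0.55, adjusted p = 0.0957). The T cell list summed to 9.83 to 11.4 CPM at day 0, 8.82 to 19.0 CPM in D5W and 7.66 to 13.9 CPM in siPD-L1, ranges that overlap. The part that numbers of these cells have in the cytotoxic and checkpoint values was not tested. None of 11 MHC class II genes passed in either comparison, and of 20 MHC class I genes 2 (Erap1 and Nlrc5) were higher and 1 (Tapbpl) lower in siPD-L1, with 4 higher without siPD-L1 replicate 3 and 1 without day 0 replicate 2. In D5W 3 class I genes were higher and none lower, and 1 was higher without D5W replicate 3. Tapbpl failed without day 0 replicate 1 or 2 or siPD-L1 replicate 1, 2 or 3. With the GC and length trend removed neither Tapbpl (-0.28) nor Erap1 (0.22) passed. Over all genes 11.5% were higher and 10.4% lower in siPD-L1. Of 15 macrophage and monocyte markers Cd14 alone was higher, from 3.83, 4.11 and 3.78 CPM to 21.2, 22.1, 3.96 and 12 CPM, with replicate 3 at the day 0 level. Summed macrophage markers ran from 1070 to 1200 CPM at day 0, from 922 to 1040 CPM in D5W and from 945 to 1090 CPM in siPD-L1. Such a sum is weighted to the most abundant members. The mean log2 CPM of the list spread more widely, over 3.15 to 3.24 at day 0 and 3.06 to 3.91 in D5W. In siPD-L1 it ran from 2.32 in replicate 3 to 3.51 in replicate 1. Cd14 failed without any one of the day 0 libraries. Trem1 was the 1 neutrophil marker that passed of 7 (2.43 ± 0.61), at 2.67, 2.57, 0.671 and 0.864 CPM in siPD-L1, and it failed without day 0 replicate 1.

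**Figure D5:**
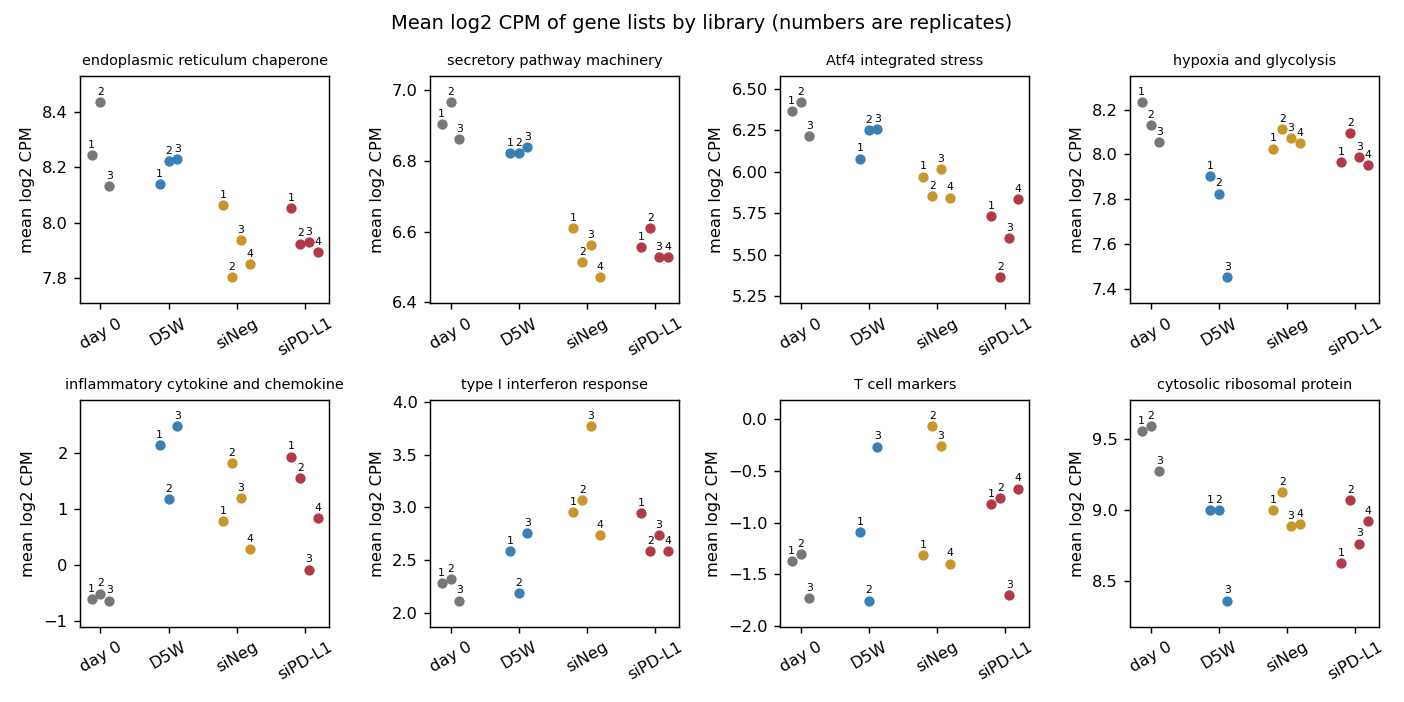
The vertical axes give the mean log2 CPM over the tested members of 8 gene lists, with 1 numbered point per library in day 0, D5W, siNeg and siPD-L1. The siPD-L1 points lie below all D5W points for the endoplasmic reticulum chaperone, secretory and Atf4 lists and above them for hypoxia and glycolysis, while siPD-L1 replicate 3 is the lowest of its group for T cell markers and cytokines. In these chaperone, secretory, Atf4 and hypoxia panels the siNeg points lie on the same side of D5W as the siPD-L1 points.

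Stromal and vascular markers moved in both directions, beside 11.5% higher and 10.4% lower over all genes in siPD-L1. Of 20 fibroblast and matrix genes 1, Fn1, was higher (0.69 ± 0.16 beside 0.68 ± 0.17) and 2, Sparc and Pdgfrb, lower in siPD-L1, with a median of 0.384 beside 1.16 in D5W, where D5W replicates 1 and 3 were high. The median of siPD-L1 was -0.0409 without siPD-L1 replicate 1, and that of D5W was 0.693 without D5W replicate 3. The 2 lower genes became 0 without any one of the day 0 libraries or siPD-L1 replicates 2 or 3 and 1 without siPD-L1 replicate 4, and Fn1 failed without day 0 replicate 1. Of 13 endothelial genes 3 were higher (Vwf, Kdr and Flt1) and 1 lower (Eng), against 5 and 0 in D5W, where the 5 became 1 without D5W replicate 3. Vwf, von Willebrand factor, held 21.7, 24.3 and 22.9 CPM at day 0 and 43.3, 39.7, 40.4 and 34.2 CPM in siPD-L1, a log2 fold change of 0.78 ± 0.16 beside 0.74 ± 0.17. The 3 became 1 without day 0 replicate 1 or 3 or siPD-L1 replicate 1 or 2, and Eng failed without any one of the day 0 libraries. Red cell genes did not pass in siPD-L1 (median -1.62 over 7), and their sum ran from 128 to 991 CPM at day 0 and from 43.1 to 354 CPM in siPD-L1.

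Tubulin, mitosis, replication, p53 and Bcl2 family genes bear on the known action of paclitaxel. Their counts stand beside 11.5% higher and 10.4% lower over all genes in siPD-L1, and 11.8% and 9.69% in D5W. The tubulin count, the replication genes lower and the Bcl2 family genes higher in siPD-L1 lie near those shares. Of 12 tubulins tested 1 changed, Tubb2a, from 11.5, 12.1 and 11.7 CPM to 16.9, 23.2, 14.7 and 18.6 CPM, a log2 fold change of 0.65 ± 0.12 beside 0.68 ± 0.13. Of 24 mitosis and spindle genes 4 were higher and 1 lower in both comparisons, beside 11.5% higher and 10.4% lower over all genes in siPD-L1, and without D5W replicate 3 they were 5 and 4 in siPD-L1 and 2 and 0 in D5W: Cenpf (0.74 ± 0.13 beside 0.71 ± 0.14), Mki67 (0.59 ± 0.12 beside 0.58 ± 0.13), Cenpe (0.45 ± 0.11 beside 0.47 ± 0.12) and Kif4 rose, and Birc5 fell (-0.31 ± 0.10 beside -0.34 ± 0.10). Cenpf, a kinetochore protein, held 126, 98.4 and 139 CPM at day 0 and 247, 174, 211 and 178 CPM in siPD-L1. These are long transcripts apart from Birc5, and with the GC and length trend removed the 4 became 1. They became 2 without day 0 replicate 1 or 2, and Birc5 failed without day 0 replicate 1 or 3 or siPD-L1 replicate 1, 3 or 4. Of 24 replication genes 3 were lower, Tk1 (-0.55 ± 0.12), Gins2 (-0.45 ± 0.11) and Gins4 (-0.18 ± 0.06), beside 2 lower and 1 higher in D5W. Gins4, which failed without any one of the 3 day 0 libraries or siPD-L1 replicate 3 or 4, stood at 0.05 with the trend removed. Of 20 p53 targets 6 were higher and 1, Gadd45a, lower, against 5 higher in D5W, with medians of 0.0844 and 0.131. Plk2, Btg2 and Plk3 led them. Gadd45a, a stress sensor of DNA damage, held 19.4, 21.6 and 15.8 CPM at day 0, 16.2, 14.6 and 21.9 CPM in D5W and 14.3, 9.22, 8.82 and 11.1 CPM in siPD-L1, a log2 fold change of -0.80 ± 0.18 beside -0.11 ± 0.19. The 6 became 3 without day 0 replicate 1, and without D5W replicate 3 the D5W count was 3 and siPD-L1 had 3 lower. With the GC and length trend removed siPD-L1 had 5 higher and none lower, and Gadd45a, at -0.55, no longer passed. In the Bcl2 family 2 of 14 were higher and 4 lower, against 3 and 4 in D5W: Pmaip1, a BH3-only killer, was at 2.02 ± 0.51 beside 1.85 ± 0.53, and Bad at -0.45 ± 0.09 beside -0.45 ± 0.09. Without day 0 replicate 1 those counts were 0 and 1, without day 0 replicate 2 or 3 they were 1 and 2, and without siPD-L1 replicate 1 or 3 they were 1 and 4 or 1 and 3. Without D5W replicate 3 they were 2 and 8 in siPD-L1 and 1 and 2 in D5W. With the GC and length trend removed they were 2 and 2 in both comparisons, and Bad, at -0.14 in siPD-L1, no longer passed there.

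Mitf, the master transcription factor of melanocytes (chr6:97807052-98021349), held 539, 522 and 561 CPM at day 0, 1090, 1070 and 1310 CPM in D5W and 1620, 1110, 1320 and 1320 CPM in siPD-L1. All day 7 libraries were above day 0, with log2 fold changes of 1.31 ± 0.11 in siPD-L1 (adjusted p = 8.4e-06) and 1.09 ± 0.12 in D5W. Of the other 13 melanocyte genes Mlana, a melanosome antigen, was lower (-0.54 ± 0.09 beside -0.53 ± 0.10) and none was higher. Sterol synthesis and uptake genes were higher in 5 of 23 (8 in D5W). Clock genes were higher in 5 of 14, led by Per1 and by Cry1, its partner repressor, at 0.67 ± 0.09 beside 0.78 ± 0.10, while D5W had 6 higher and 3 lower, the 3 becoming 0 and siPD-L1 having 2 lower without D5W replicate 3. Of 19 TGF-beta genes 3 were higher (5 without siPD-L1 replicate 3 and 6 without D5W replicate 3) and Tgfb1, the ligand, was lower (-0.61 ± 0.14 beside -0.33 ± 0.15). Of 15 hyaluronan genes Tnfaip6, a hyaluronan-binding protein of inflammation, was higher (1.78 ± 0.33 beside 2.95 ± 0.35) and Hyal2 lower, the latter not without day 0 replicate 1 or 3 or siPD-L1 replicate 1 or 3. Of 28 lysosome genes 1 was higher and 4 lower, and 2 were lower without day 0 replicate 1 or 2. The sterol, clock, TGF-beta, hyaluronan and lysosome counts stand beside 11.5% higher and 10.4% lower over all genes in siPD-L1.

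No gene was higher in siPD-L1 than in D5W by the test of that difference (DESeq2 gave 45, and 1375 genes had an unadjusted p under 0.05 in either direction). Nfe2l3, a relative of Nrf2, held 0.758, 1.14 and 1.26 CPM at day 0, 1.25, 1.33 and 1.06 CPM in D5W and 2.06, 2.07, 1.91 and 1.64 CPM in siPD-L1, a log2 fold change of 0.87 ± 0.21 from day 0 and a difference of 0.66 from D5W with an interval from 0.22 to 1.10 (adjusted p = 0.334). Its call against day 0 failed without day 0 replicate 1. Il31ra, a cytokine receptor subunit, stood at 1100 CPM in siPD-L1 replicate 1 and at 85.9, 107 and 93.1 CPM in the others, beside 27.3 to 53.6 CPM at day 0, 28.6 to 47.2 CPM in D5W and 58.0 to 237 CPM in siNeg. Its call (3.21 ± 1.02, adjusted p = 0.0477) was lost without siPD-L1 replicate 1 or any one of the day 0 libraries. The ribosomal RNA gene n-R5-8s1 was also highest in siPD-L1 replicate 1, at 10.3 CPM beside 0.981 to 3.98 CPM.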

How the data were processed

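RNA was extracted from tumours with a Qiagen RNeasy kit and made into TruSeq stranded libraries, per the labels' protocols. The authors deposited 1 table of raw read counts per gene for 14 libraries. The tools FastQC 0.11.3, STAR, featureCounts and edgeR and the build GRCm38 are named in the submitters' processing notes; other versions, the annotation release and the strand setting were not given there. Gene symbols and positions came from GENCODE M21.

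Counts were tested with edgeR 4.0.16 (R 4.3.3): genes were filtered by group, libraries scaled by TMM, and 1 robust quasi-likelihood fit made over all 14 libraries, with Benjamini-Hochberg adjustment over 17141 genes and a threshold of 0.05. Values are counts-per-million units (CPM) after TMM scaling; fold changes are log2 with a standard error from the fit. The script was tested on simulated counts. DESeq2 1.42.0 and limma 3.58.1 were alternatives, beside other scalings and filters, a replicate block, a GC and length trend, and each library left out in turn. Named genes were Cd274, the 12 highest and the 12 lowest among called genes without overlap, the 12 smallest p-values, 4 members of each list with the smallest p, and genes passing against D5W. Also named were up to 8 genes in each direction with the largest difference from D5W. These were called against day 0 and chosen for no overlap with D5W, without having to pass against it. The members and the 45 lists were chosen with earlier results of these data known; 42 of their 767 genes were not tested, 7 of them for want of a match. The libraries themselves were grouped by label. Same-numbered libraries were not treated as pairs: correlations of their deviations for numbers 1, 2 and 3 were -0.0324, -0.0141 and 0.0633 between siPD-L1 and day 0, 0.214, -0.121 and -0.0175 between D5W and day 0, and -0.194, -0.0164 and -0.232 between siPD-L1 and D5W, and no 2 replicates agreed within sampling noise. Results on 2 list genes are not reported here.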

Additional observations from a re-analysis of the deposited data

Results flagged for a closer look

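Of 245 tests for a siPD-L1 library far from the other 3 of its group, 15 passed, and chance passes about 1 in 20. In log2 CPM, siPD-L1 replicate 3 stood low for Cd2 at -1.9, Cd68 at 3.83, Coq10b at 5.19, Cxcl9 at 0.283, Gzmb at -0.873 and H2-Eb1 at 2.39. The same library stood low in the mean log2 CPM of the T cell markers at -1.7, of lymphocyte-attracting chemokines at 0.505 and of MHC class I genes at 4.08, and high in that of splicing regulators at 7.7. Replicate 2 stood low for Adh7 at -0.288 and Otog at -1.85, and low in the mean of the melanocyte markers at 8.37. Replicate 1 stood low for Ankrd37 at 2.72 and high for Il31ra at 10.1.

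The change from day 0 differed between siPD-L1 and D5W by the test of the difference itself for 5 genes, with log2 differences of -1.02 for Kdelr3, -0.384 for Prrc1, -0.576 for Bcat1, -1.08 for Nnmt and -0.516 for Sec24d. Their parts in any process were not tested.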

How the results depend on the processing

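The 3756 genes changed between siPD-L1 and day 0 became 2077 with library totals as the only scaling and 2486 after removal of a GC and length trend, and ranged from 1653 to 4107 when single day 0 or siPD-L1 libraries were left out. Without D5W replicate 3, which enters the shared fit, they were 2483 higher and 2583 lower. DESeq2 gave 4584. For D5W against day 0 the 3691 genes became 2361 with library totals, 2320 without a low-count filter, 2237 with only the groups compared and 2450 with the trend removed, and ranged from 1350 to 4031 without single day 0 or D5W libraries. The 5 genes between siPD-L1 and D5W became 60 with library totals, 39 without a filter, 17 with a CPM filter, 183 in DESeq2, 13 in limma voom, 1 with only the groups compared and 13 without mitochondrial and ribosomal RNA-like genes, and ranged from 0 to 10 without single siPD-L1 or D5W libraries. The fit with the replicate number as a block gave 3514, 3695 and 0 genes in these comparisons, though the numbers showed no pairing, and a log2 fold change for Cd274 of 0.5273 (adjusted p = 0.0534). Cd274 also did not pass with library totals (0.5572) or the trend removed (0.4657), and ranged from 0.4548 to 0.5862 without single day 0 or siPD-L1 libraries. Gins4 and Rpl19 turned from lower to 0.04806 and 0.01037 with the trend removed. Causes were not tested. Of 155 named calls, 115 to 143 held without any one of the 7 libraries. Calls of genes under 1 CPM are limited by depth.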
